A study of Mus musculus with 2 samples.

Results

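The genes described here are 7 acute phase genes, Saa1, Saa2, Saa3, Hp, Lcn2, Serpina3n and Ptx3, followed cell class by cell class through single-cell RNA-seq of the inflamed mouse colon. They were taken by symbol from both count matrices, and all 7 are among the 23197 genes listed in both files, of 28695 listed in either. Colitis had been induced with dextran sulfate sodium (DSS), a polymer given to mice that injures the colonic epithelium. The library labelled Elf1 KO came from DSS-treated mice labelled as knockouts of the ETS family transcription factor Elf1, and the WT library from DSS-treated wild-type mice. Both groups were C57BL/6 and 8 to 10 weeks old, and both had received DSS, so that no uninflamed colon stands beside them. Each library pooled cells dissociated from the proximal and distal colon and the rectum of 3 mice, so that there is 1 library per group, and cells cannot be traced to a mouse. No difference between the groups could therefore be tested. The sources used here do not state the dose or days of DSS, or how Elf1 was deleted.

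Acute phase proteins are secreted during inflammation, classically by the liver under the control of IL-6 family cytokines, IL-1 and TNF acting through STAT3, NF-kB and C/EBP factors. Several are also made at the site of injury, and faecal lipocalin-2, the product of Lcn2, is a widely used marker of intestinal inflammation in mice. The serum amyloid A proteins are lipid-carrying proteins that also attract leukocytes; Saa1 and Saa2 are made in liver and in gut epithelium, and Saa3 mostly outside the liver. Lipocalin-2 withholds iron by binding bacterial siderophores, haptoglobin (Hp) captures free haemoglobin, Serpina3n inhibits serine proteases of leukocytes, and Ptx3 is the long pentraxin, a soluble pattern recognition molecule made locally.

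On GRCm38, Saa3 (ENSMUSG00000040026, chr7:46711998-46715700, minus strand), Saa1 (ENSMUSG00000074115, chr7:46740497-46742980, minus strand) and Saa2 (ENSMUSG00000057465, chr7:46751790-46754313, plus strand) lie side by side on chromosome 7. Hp (ENSMUSG00000031722) lies at chr8:109575128-109579172 on the minus strand and Lcn2 (ENSMUSG00000026822) at chr2:32384633-32388252 on the minus strand. Serpina3n (ENSMUSG00000021091) lies at chr12:104406729-104414329 on the plus strand, within a cluster of related serpins, and Ptx3 (ENSMUSG00000027832) at chr3:66219910-66225805 on the plus strand. The Saa1 and Saa2 transcripts were 93.9% identical over their alignment, with a longest shared run of 99 bases, and none of the 510 windows of 100 bases in Saa1 was shared with Saa2, so that only shorter reads could fit both without a mismatch. Saa1 and Saa3 were 62.2% identical.

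Promoters of 6 of the 7 members (all but Hp) are held by RefSeq for GRCm38.p6, as 300 bases from 250 before the transcription start to 50 after it. They are printed because the members are textbook targets of shared inflammatory factors, and they show how alike the Saa1 and Saa2 starts are and how unlike the others. Capitals mark the match to the C/EBP letters TTGCNNAA on either strand; in Saa3 and Ptx3 the match lies on the strand opposite to the one printed.

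Saa1, chr7:46742931-46743230, minus strand: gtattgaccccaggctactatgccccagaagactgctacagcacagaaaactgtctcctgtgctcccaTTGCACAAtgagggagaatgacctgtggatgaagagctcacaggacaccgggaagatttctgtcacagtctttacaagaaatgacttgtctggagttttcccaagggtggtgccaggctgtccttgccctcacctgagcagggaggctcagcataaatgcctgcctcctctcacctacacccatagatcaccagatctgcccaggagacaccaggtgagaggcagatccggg
Saa2, chr7:46751583-46751882, plus strand: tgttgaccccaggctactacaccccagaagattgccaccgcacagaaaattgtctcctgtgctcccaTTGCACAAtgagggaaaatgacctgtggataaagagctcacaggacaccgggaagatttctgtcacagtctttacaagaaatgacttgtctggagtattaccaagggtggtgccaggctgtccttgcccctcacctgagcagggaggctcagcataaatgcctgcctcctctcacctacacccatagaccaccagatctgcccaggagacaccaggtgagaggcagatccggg
Saa3, chr7:46715627-46715926, minus strand: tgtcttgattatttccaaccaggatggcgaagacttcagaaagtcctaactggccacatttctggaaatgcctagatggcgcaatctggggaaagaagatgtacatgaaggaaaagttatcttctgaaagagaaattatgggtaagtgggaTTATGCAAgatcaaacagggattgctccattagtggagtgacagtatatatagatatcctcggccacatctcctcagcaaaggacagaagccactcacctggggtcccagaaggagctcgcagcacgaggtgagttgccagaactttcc
Lcn2, chr2:32387690-32387989, minus strand: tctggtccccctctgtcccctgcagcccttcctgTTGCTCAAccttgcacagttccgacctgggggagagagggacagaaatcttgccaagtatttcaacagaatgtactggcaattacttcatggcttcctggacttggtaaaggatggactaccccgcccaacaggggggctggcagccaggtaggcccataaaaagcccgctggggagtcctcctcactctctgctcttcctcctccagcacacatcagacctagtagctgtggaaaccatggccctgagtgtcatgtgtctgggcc
Serpina3n, chr12:104406458-104406757, plus strand: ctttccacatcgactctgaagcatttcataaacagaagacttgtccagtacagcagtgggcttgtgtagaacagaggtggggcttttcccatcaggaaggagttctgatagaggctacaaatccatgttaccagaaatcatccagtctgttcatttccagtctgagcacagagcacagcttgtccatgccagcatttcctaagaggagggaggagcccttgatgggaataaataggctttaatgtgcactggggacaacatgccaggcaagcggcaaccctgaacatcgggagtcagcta
Ptx3, chr3:66219637-66219936, plus strand: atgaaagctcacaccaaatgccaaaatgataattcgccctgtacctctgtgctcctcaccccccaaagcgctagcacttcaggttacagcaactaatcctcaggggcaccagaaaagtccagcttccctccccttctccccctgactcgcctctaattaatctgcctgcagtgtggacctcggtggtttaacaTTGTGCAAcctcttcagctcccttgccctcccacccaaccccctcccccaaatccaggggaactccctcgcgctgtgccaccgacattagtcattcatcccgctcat

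The Saa1 and Saa2 promoters were 95.3% identical over their alignment, and those of Saa1 and Saa3 50.9%. C/EBP letters were found in 5 of the 6 promoters (not in Serpina3n), beside 10.8% of 32544 mouse promoters of the same length. The first base of the match lay 182 bases before the start in Saa1, 183 in Saa2, 99 in Saa3, 216 in Lcn2 and 57 in Ptx3. On both strands, the NF-kB motif of 10 letters was in 0 of the 6 (0.415% of all promoters), the STAT letters TTCNNNGAA in 0 of 6 (8.33%) and the TATA box letters TATAAA in 0 of 6 (13.6%). A match describes the letters in the window and is not a measured binding site, and the absence of one says nothing of the factor.

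The library labelled Elf1 KO held 10012 barcodes and the WT library 8635, of which 9474 and 7718 cells were kept, with 37261926 and 29823446 UMIs (unique molecular identifiers, each marking 1 captured RNA molecule) and medians of 2636 and 2022.5 UMIs per cell. The libraries share 57 barcodes, 44 of them among kept cells. Elf1 itself had 181 CPM (counts scaled to a total of 1000000 UMIs) in the library labelled Elf1 KO and 192 CPM in the WT library, a ratio of 0.94 (0.91 to 0.98). Which exons were removed is unknown here, so these UMIs check nothing about the deletion, and the library is called labelled KO throughout. Cells fell into 29 clusters and 13 named classes, 9 of which had at least 100 cells in both libraries and were compared. Levels below are the CPM of all UMIs of a class or cluster, and ratios are labelled KO over WT with 95% intervals. Intervals cover counting error only, not the spread between mice, and a gene is called past the limit where the ratio is at least 2 or at most 0.5 and its interval excludes 1, among genes listed in both files with at least 50 UMIs in the class.

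Free RNA set a floor under the level of every member but Saa2, which had 0 UMIs in erythroid and plasma cells of both libraries. Erythroid cells, which should make none of these proteins, carried Saa3 in 98.9% of 87 labelled KO cells and in 31.0% of 42 WT cells, at medians of 6767 and 9114.5 UMIs per cell. In plasma cells the mean was 7.34 Saa3 UMIs per labelled KO cell and 0.565 per WT cell. The higher of the means of these 2 classes was taken as the free RNA level of each gene in each library, and levels are given as multiples of it. Plasma cells and erythroid cells set this level, so by construction they cannot be over it. By this measure B cells, T and innate lymphoid cells and dendritic cells held no member past the limit that was also over its free RNA level. Counts past the limit were 4 higher and 1 lower of 5 members measured in B cells, T cells and plasma cells, and 3 higher of 3 in dendritic cells. Of all genes compared, 4.02% were higher and 6.05% lower in B cells, 5.28% and 3.56% in T cells, 5.0% and 5.77% in plasma cells and 12% and 8.29% in dendritic cells.

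Over all kept cells, 6 members were higher in the library labelled KO and Saa1 was lower, all past the limit, where 7.29% of 15167 genes compared were higher and 18.3% lower. Lcn2 was at 2452 CPM in the library labelled KO and 138 CPM in the WT library, a ratio of 17.8 (17.2 to 18.4). Saa3 was at 18676.5 CPM in the library labelled KO and 1681 CPM in the WT library, 11.1-fold. In the library labelled KO and the WT library Hp was at 626 and 62.7 CPM (9.99-fold), Ptx3 at 188 and 19.7 CPM (9.53-fold) and Serpina3n at 2362 and 735 CPM (3.21-fold). Saa2 had 110 UMIs in the library labelled KO and 17 in the WT library, 5.18-fold. Saa1 went the other way, with 71.4 CPM in the library labelled KO and 205 CPM in the WT library (0.35). These totals mix unlike sets of cells. Fibroblasts were 29.3% of labelled KO cells and 15.9% of WT cells, neutrophils 13.3% and 2.14%, and epithelial cells 0.739% and 13.6%. With the class shares of the labelled KO library given to both, Saa1 turned to 2.39-fold higher, and Lcn2 stood at 6.05-fold, Saa3 at 3.78-fold, Hp at 3.47-fold, Ptx3 at 4.91-fold and Serpina3n at 1.48-fold. With the WT class shares in both, Saa1 was 0.54-fold, Lcn2 10.5-fold, Saa3 6.07-fold, Hp 5.18-fold, Ptx3 5.59-fold and Serpina3n 1.86-fold. These WT shares do not equalise the epithelium, which gets 13.6% of the cells. It held 70 labelled KO cells, 57 of them enteroendocrine, and 1047 WT cells, 22 of them enteroendocrine, so the Saa1 value compares unlike cells.

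**Figure D1:**
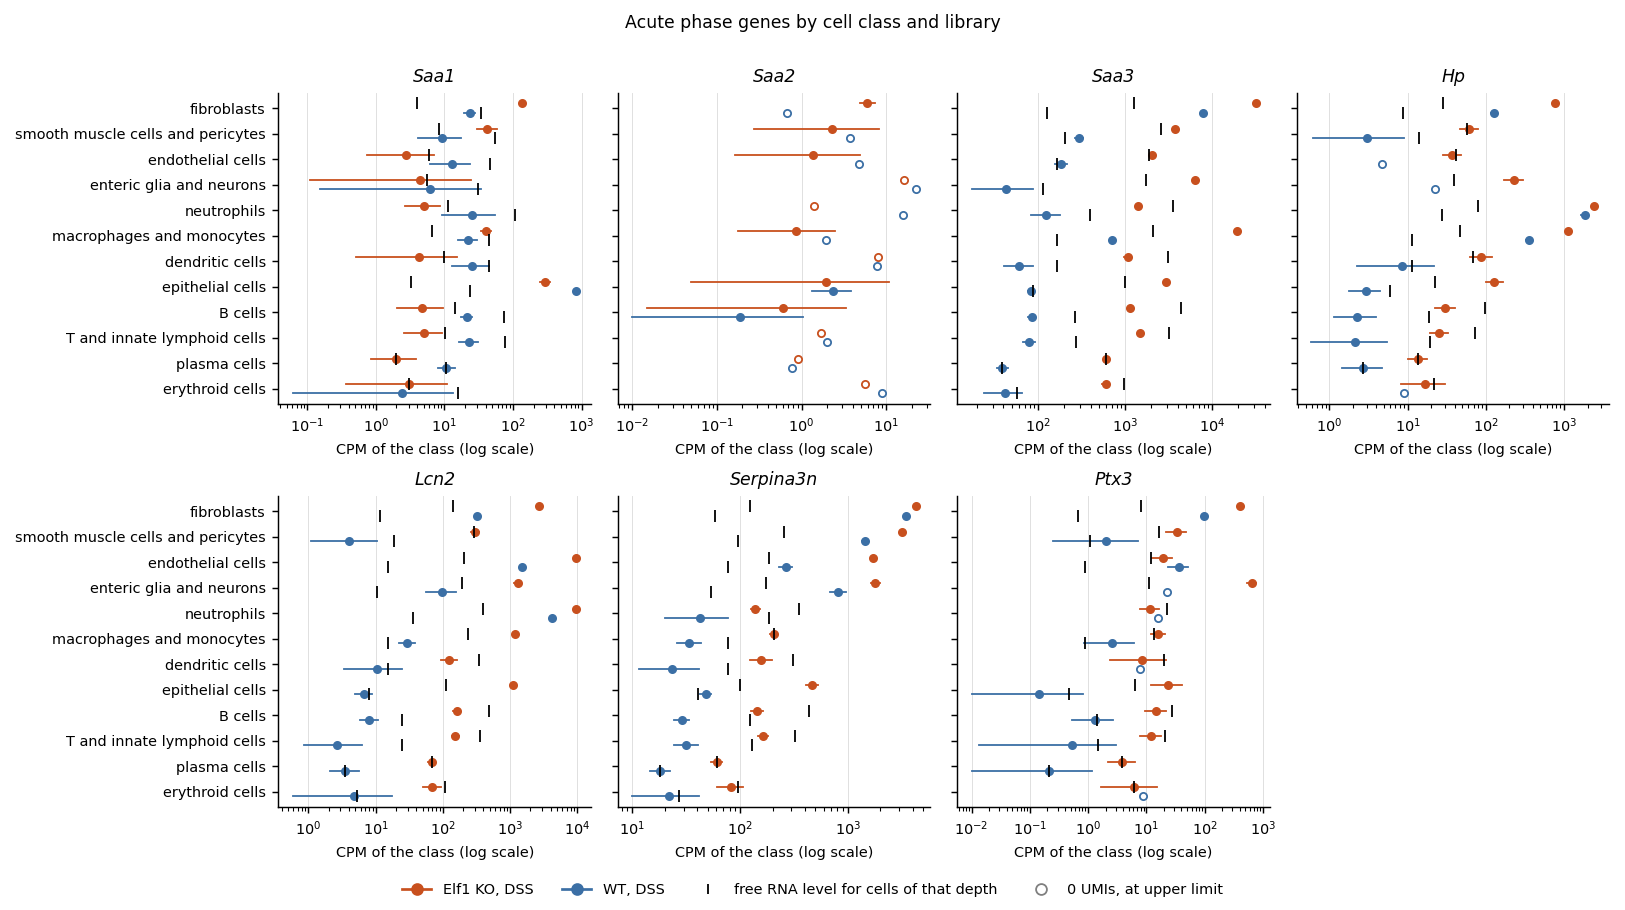
Level of each gene in each cell class in CPM on a log axis, labelled KO above WT, with exact Poisson intervals; ticks mark the free RNA level for cells of that depth and open circles stand for 0 UMIs, drawn at the upper limit. Among the 9 compared classes Saa3, Serpina3n and Ptx3 were highest in fibroblasts and Hp in neutrophils in both libraries, while Lcn2 was nearly equal in labelled KO neutrophils and endothelial cells (9671 and 9627 CPM) and higher in WT neutrophils than WT endothelial cells (4177 and 1496 CPM).

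**Figure D2:**
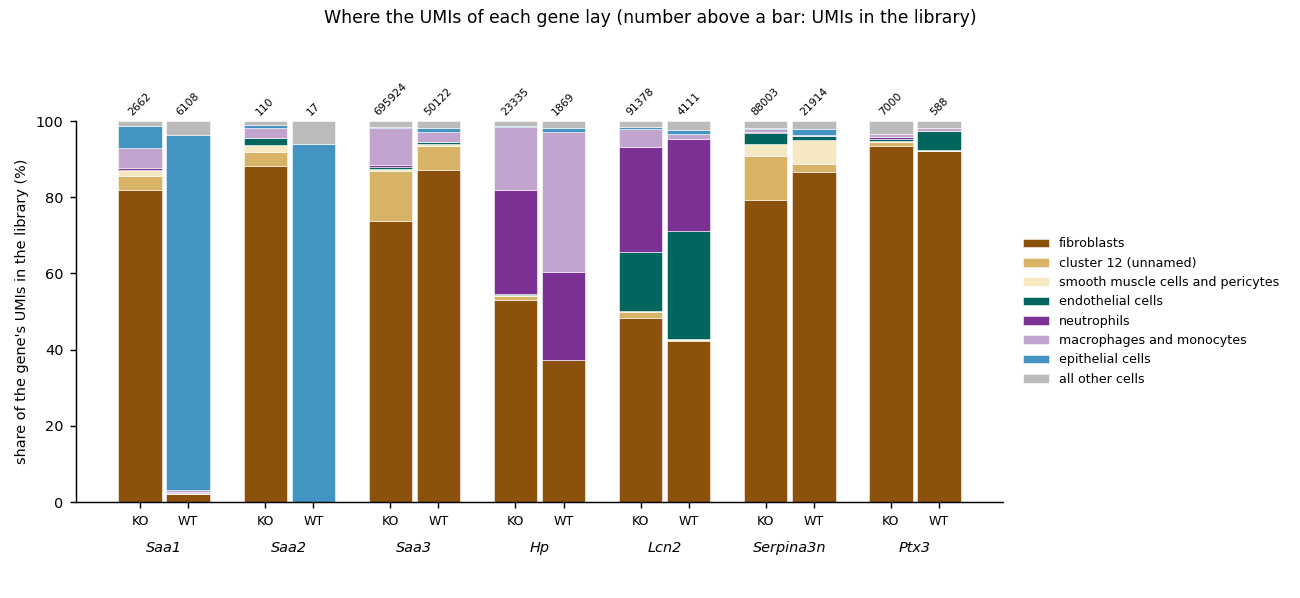
Share of each gene's UMIs held by each cell class, in percent, with the labelled KO bar left of the WT bar and the number of UMIs above each bar. Saa1 lay in fibroblasts in the library labelled KO (81.9%) and in epithelial cells in the WT library (93.1%), while Ptx3 lay in fibroblasts in both (93.6% and 92.2%).

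Fibroblasts carried most of the acute phase RNA. They held 73.8% of Saa3 UMIs in the library labelled KO and 87.2% in the WT library, 79.3% and 86.7% of Serpina3n, 93.6% and 92.2% of Ptx3, 53.0% and 37.2% of Hp and 48.2% and 42.4% of Lcn2. Of the 7 members, 6 were higher past the limit in labelled KO fibroblasts and 0 lower, where 3.35% of 11391 genes were higher and 13.4% lower. All 6 were over their free RNA level in at least 1 library. For Saa2 that level was 0, so that any UMI put it over. Saa2 also entered through labelled KO cells alone, with 97 UMIs there and 0 in WT fibroblasts. Serpina3n did not pass the limit. The median log2 ratio was 2.51 over the members and -0.34 over all genes compared. Fibroblasts of the libraries were largely different clusters: clusters 3, 16, 13 and 9 held 32.6%, 26.5%, 21.4% and 16.3% of the 2778 labelled KO cells, and cluster 26 (Sfrp2, Lpl, Wnt4) 68.3% of the 1224 WT cells. Neutrophil markers summed to 980 CPM in labelled KO fibroblasts (12 of 12 detected) and 373 CPM in WT fibroblasts (10 of 12, Cxcr2 and Stfa2 at 0), against 39608 and 35224 CPM of fibroblast markers, and their part in these results was not tested.

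Saa3, the extrahepatic serum amyloid A, was the most abundant member by UMIs. It was at 31536 CPM in labelled KO fibroblasts and 7942.5 CPM in WT fibroblasts, a ratio of 3.97 (3.93 to 4.01), at 25.2 and 63.2 times the free RNA level. Cluster by cluster the picture was uneven. Cluster 9 (Il33, Col8a1, Col14a1) had 43164.5 CPM in 452 labelled KO cells and 4072 CPM in 128 WT cells. Its labelled KO cells had a median of 190.5 Saa3 UMIs and a maximum of 2339, its WT cells a median of 0 and a maximum of 522. Cluster 13 (Mt3, Mmp13, Mmp10) had 64715.5 CPM in 594 labelled KO cells and 40773 CPM in 36 WT cells. Cluster 3 (Ccl11, Cxcl13, Ccl2) had nearly the same level in both, 19148 CPM in 907 labelled KO cells and 18736.5 CPM in 92 WT cells. In cluster 16 (Mmp3, Mmp10, Il1rl1) Saa3 was lower in the library labelled KO, with 24692 CPM in 735 cells against 46523 CPM in 70 WT cells, where the median cell held 58 UMIs in the library labelled KO and 131.5 in the WT library. The cluster that made up most WT fibroblasts, 26, had 15451 CPM in 8 labelled KO cells, of which 1 cell held 89.4% of the UMIs, and 2233 CPM in 836 WT cells. With the cluster shares of the labelled KO library in both libraries the fibroblast ratio was 1.15, and with WT cluster shares in both it was 2.71. The WT shares give 68.3% of the fibroblasts to cluster 26, so that ratio leans on its 8 labelled KO cells. Cells thinned to 1000 UMIs carried Saa3 in 86.1% of 2552 labelled KO fibroblasts and 26.1% of 1158 WT fibroblasts, beside 42.4% and 4.76% of erythroid cells.

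A cluster that stayed unnamed, 12 (Serpina3c, Enpp2, Kcne4), also carried much Saa3. Its 894 labelled KO cells were at 36345 CPM and its 44 WT cells at 24790 CPM, 1 WT cell holding 33.4%, and it held 13.2% of Saa3 UMIs in the library labelled KO and 6.33% in the WT library. In cluster 12, 11 of 15 fibroblast markers were raised, and smooth muscle markers led by mean fold, so no class name was given. With a minimum of 1000 UMIs or at most 10% mitochondrial UMIs, a cluster also led by Serpina3c, Enpp2, Kcne4 and Agt (973 and 1051 labelled KO cells, 43 and 50 WT cells) took the name of smooth muscle cells and pericytes.

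In macrophages and monocytes (993 labelled KO and 559 WT cells), 5 of 6 measured members were higher past the limit in the library labelled KO and 0 lower, where 4.52% of 7516 genes were higher and 6.63% lower. Of these, Saa3, Hp, Lcn2 and Ptx3 were over their free RNA level, Ptx3 at 1.20 times in the library labelled KO and 2.94 times in the WT library on 56 and 5 UMIs. With free RNA subtracted its ratio was 1.57 in place of 6.15 and did not pass the limit. The WT free RNA level of Ptx3 rested on 1 UMI in 329 plasma cells and 0 in 42 erythroid cells. Saa3 was at 19489 CPM in labelled KO macrophages and 705 CPM in WT macrophages, a ratio of 27.6 (26.2 to 29.2), at 9.33 and 4.28 times the free RNA level. It was high in both clusters of the class. The monocyte cluster 4 (Chil3, F10, F13a1) had 18068 CPM in 625 labelled KO cells and 1007 CPM in 331 WT cells. The C1q cluster 20 (C1qc, C1qa, Pf4) had 20764 CPM in 368 labelled KO cells and 441 CPM in 228 WT cells. After thinning, 87.9% of labelled KO and 19.0% of WT macrophages carried a Saa3 UMI. Fibroblast markers summed to 2046 CPM in labelled KO macrophages (15 of 15 detected) and 737 CPM in WT macrophages (14 of 15, Bmp7 at 0), and their part was not tested. In the other compared classes Saa3 was near or below its free RNA level, at 1.44 times that level in labelled KO and 1.46 times in WT smooth muscle cells, 1.08 and 1.10 times in endothelial cells and 0.40 and 0.31 times in neutrophils. The smooth muscle values hold only with cluster 12 left unnamed. It held 13.2% of labelled KO Saa3 UMIs, and a cluster led by the same genes joined that class under the stricter filters named above. Among classes not compared between the libraries, enteric glia were at 6423 CPM in the library labelled KO, 3.66 times the free RNA level with 1 cell holding 73.9% of the UMIs, and at 42.8 CPM in the WT library, 0.38 times. Epithelial cells were at 2980 CPM in the library labelled KO, 2.96 times, and at 82.5 CPM in the WT library, 0.95 times.

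Saa1 changed its place between the libraries. In the library labelled KO 81.9% of its 2662 UMIs lay in fibroblasts and 5.63% in epithelial cells. In the WT library 2.11% of its 6108 UMIs lay in fibroblasts and 93.1% in epithelial cells. In fibroblasts it was at 134 CPM in the library labelled KO, 33.5 times its free RNA level, and at 23.4 CPM in the WT library, 0.68 times that level, a ratio of 5.71 (4.78 to 6.88). Labelled KO fibroblasts of cluster 13 had 424 CPM and of cluster 9 had 236 CPM, with a Saa1 UMI in 12.6% and 18.4% of cells and up to 93 UMIs in 1 cell. WT fibroblasts of these clusters had 23.5 CPM from 2 UMIs and 10.9 CPM from 8 UMIs. Cluster 16 did not share the difference, with 74.7 CPM in labelled KO cells and 89.5 CPM in WT cells, 1 WT cell holding 75.0%. Macrophages were at 40.1 CPM in the library labelled KO and 21.9 CPM in the WT library, 1.83-fold, with WT at 0.48 times the free RNA level.

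The epithelium that carries Saa1 was almost missing from the library labelled KO. It had 70 epithelial cells, 57 of them in the enteroendocrine cluster 23 (Chgb, Chga, Tph1), where Saa1 had 1 UMI, against 1047 in the WT library, so the levels, 294 CPM in labelled KO and 830 CPM in WT epithelium, are set side by side without a comparison. The absorptive cluster 27 (Dmbt1, Muc3, Car1) had 8594 CPM in 13 labelled KO cells, of which 1 cell held 55.7% of the UMIs, and 709 CPM in 893 WT cells. The goblet cell cluster 28 had 0 labelled KO cells and 1461 CPM in 132 WT cells, of which 1 cell held 31.4%. Within WT epithelium Saa1 was patchy: 31.4% of cluster 27 cells had a UMI, the median cell had 0 and the highest 378. Whether fewer epithelial cells were present or fewer were captured cannot be told apart.

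Saa2, the near copy of Saa1, was scarce, with 110 UMIs in the library labelled KO and 17 in the WT library. It lay in the same classes as Saa1, with 97 UMIs in labelled KO fibroblasts and 0 in WT fibroblasts (at least 10.9-fold higher, with the floor at 3 UMIs in WT fibroblasts), and 1 UMI in labelled KO epithelium against 16 in WT epithelium. Clusters differed: cluster 13 held 32.4% of labelled KO Saa1 UMIs and 5.45% of Saa2 UMIs, and cluster 9 held 32.2% and 46.4%. Few cells carried Saa2. In labelled KO cluster 9, 1 cell held 56.9% of 51 UMIs, and in cluster 16, 1 cell held 88.5% of 26.

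**Figure D3:**
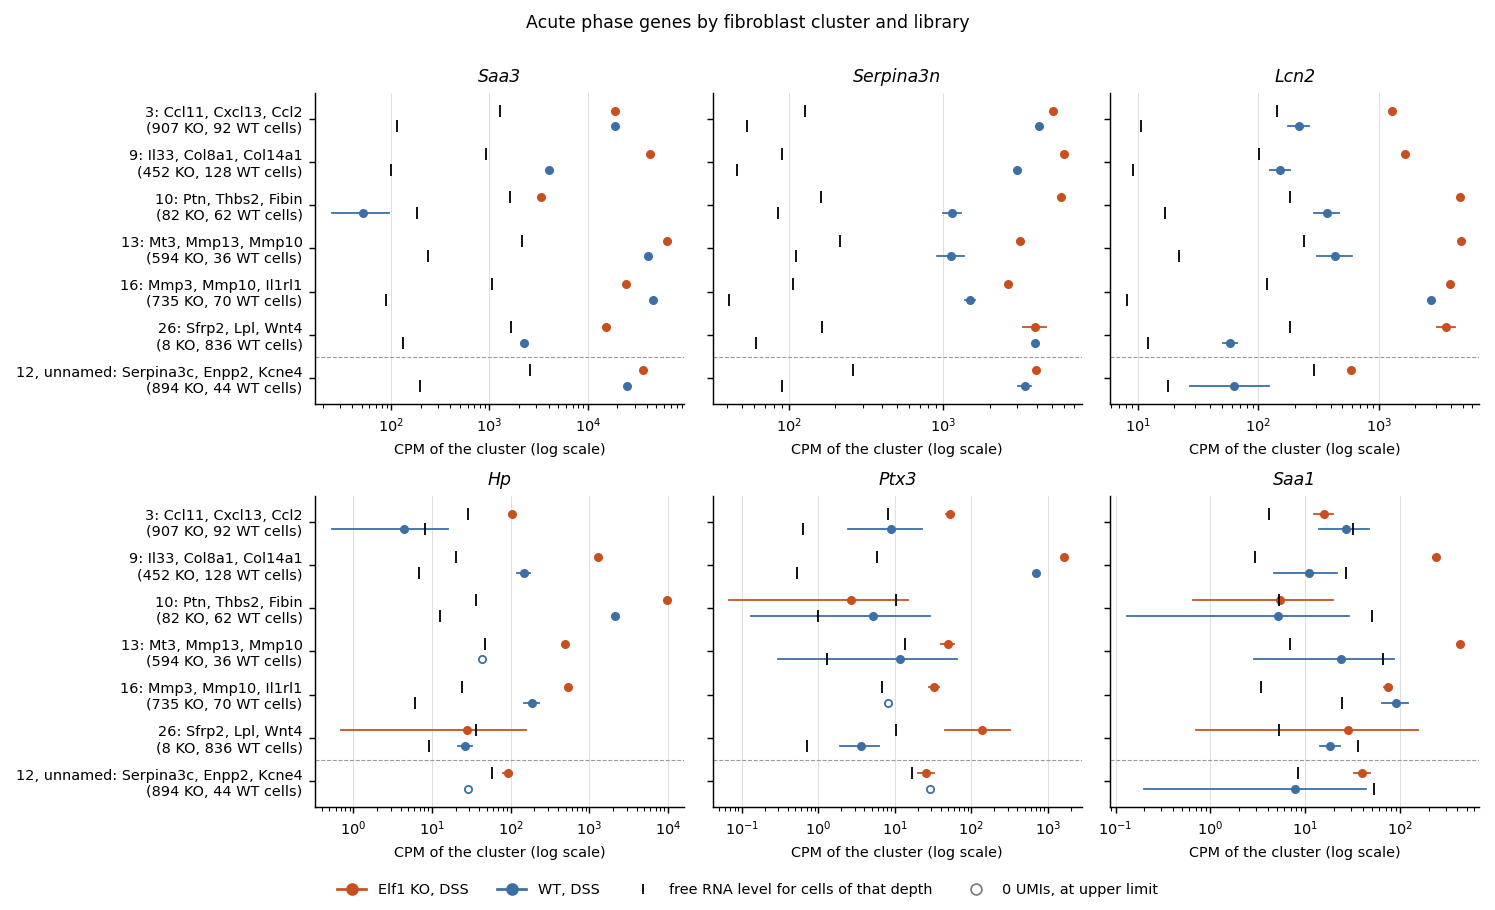
Level of 6 genes in each fibroblast cluster and in the unnamed cluster 12, in CPM on a log axis, labelled KO above WT, with exact Poisson intervals and the free RNA level as a tick. Lcn2 was higher in labelled KO cells in all 6 fibroblast clusters, Saa3 was lower in cluster 16, and Ptx3 was high in cluster 9 in both libraries (1655 and 713 CPM).

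Lcn2, the siderophore binder, had several sources: fibroblasts, neutrophils and endothelial cells together held most of its UMIs in both libraries. In fibroblasts it was at 2706 CPM in the library labelled KO and 317 CPM in the WT library, a ratio of 8.54 (8.14 to 8.97). All 6 fibroblast clusters were higher in the library labelled KO. Cluster 13 had 4795 CPM in labelled KO cells and 435 CPM in WT cells, cluster 10 (Ptn, Thbs2, Fibin) 4762 and 370 CPM, and cluster 9 1648.5 and 151 CPM. The gap was smallest in cluster 16, with 3920 CPM in labelled KO cells and 2725 CPM in WT cells, 1 WT cell holding 22.2%; this cluster alone held 29.6% of all WT Lcn2 UMIs. With labelled KO cluster shares in both libraries the fibroblast ratio was 2.44, and with WT cluster shares in both 10.1. The second leans on the 8 labelled KO cells of cluster 26, to which the WT shares give 68.3% of the fibroblasts. After thinning, 54.5% of labelled KO and 5.61% of WT fibroblasts had an Lcn2 UMI, beside 8.24% and 0% of erythroid cells, where 0 of 42 WT cells allows a share of up to 7.14%, taking 3 cells as the limit of a count of 0, or 8.41% by the exact interval.

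In vessels, 4 of 5 measured members were higher past the limit in labelled KO endothelial cells and 0 lower, 3 of them over their free RNA level (all but Hp), where 3.75% of 5941 genes were higher and 6.65% lower. Hp entered through labelled KO cells alone, with 55 UMIs there and 0 in WT endothelial cells. Lcn2 was at 9627 CPM in 375 labelled KO endothelial cells and 1496 CPM in 231 WT endothelial cells, a ratio of 6.43 (6.06 to 6.83). Most of it came from lymphatic vessels. Cluster 15 (Lyve1, Ccl21a, Mmrn1), in which 6 of 6 lymphatic markers were detected in both libraries, had 17902 CPM in 190 labelled KO cells and 3672 CPM in 102 WT cells. An Lcn2 UMI was in 100% of those labelled KO cells and 95.1% of those WT cells, with medians of 45 and 7.5 UMIs. Blood endothelium, cluster 18 (Plvap, Flt1, Madcam1), had 2508 CPM in 185 labelled KO cells and 178 CPM in 129 WT cells. Neutrophil markers, whose cells hold much Lcn2, summed to 1844 CPM in labelled KO and 135 CPM in WT lymphatic cells, and to 1825 and 324 CPM in blood endothelium. Their part in the Lcn2 values was not tested.

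In neutrophils, where lipocalin-2 is a protein of the specific granules, Lcn2 was at 9671 CPM in 1257 labelled KO cells and 4177 CPM in 165 WT cells, a ratio of 2.32 (2.17 to 2.47). It was the only one of 3 members past the limit there that was over its free RNA level; 4 were measured, and 5.45% of 3853 genes were higher and 8.80% lower. Sub-clusters of neutrophils differed between the libraries. A granule-making sub-cluster led by Ltf, Camp and Ngp had 154 labelled KO cells at 13479 CPM of Lcn2 and 0 WT cells. A sub-cluster led by Cxcl3, Spp1 and Ccl3 had 10320 CPM in 235 labelled KO cells and 9185 CPM in 9 WT cells. The sub-cluster holding 66.6% of labelled KO neutrophils had 8436 CPM in 837 labelled KO cells and 6701 CPM in 22 WT cells. The sub-cluster holding 78.8% of WT neutrophils, led by the epithelial genes Lypd8, Krt8 and Lgals4, had 7482 CPM in 26 labelled KO cells and 3568 CPM in 130 WT cells. Of 11 other granule genes measured, 6 were higher past the limit in labelled KO neutrophils and 0 lower, among them Ngp at 8664 and 597 CPM (14.5-fold), Ltf at 430 and 21.2 CPM (20.3-fold) and Mmp8 at 4107 and 724 CPM (5.68-fold).

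Macrophages and monocytes had Lcn2 at 1191 CPM in the library labelled KO and 29.7 CPM in the WT library, 40.1-fold (30.9 to 53.0), at 5.12 and 1.97 times the free RNA level. With free RNA subtracted the ratio was 65.4. Most of it lay in monocyte cluster 4, with 2131 CPM in labelled KO cells and 55.9 CPM in WT cells. The same cluster differed in neutrophil markers, which summed to 11857 CPM in labelled KO cells (12 of 12 detected) and 1402 CPM in WT cells (10 of 12, Stfa2 and Stfa2l1 at 0). In C1q cluster 20 Lcn2 was at 348 CPM in labelled KO cells, 2.13 times the free RNA level, and at 6.84 CPM in WT cells, 0.59 times, beside neutrophil markers of 4249 and 587 CPM. The part of neutrophil RNA in these values was not tested.

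**Figure D4:**
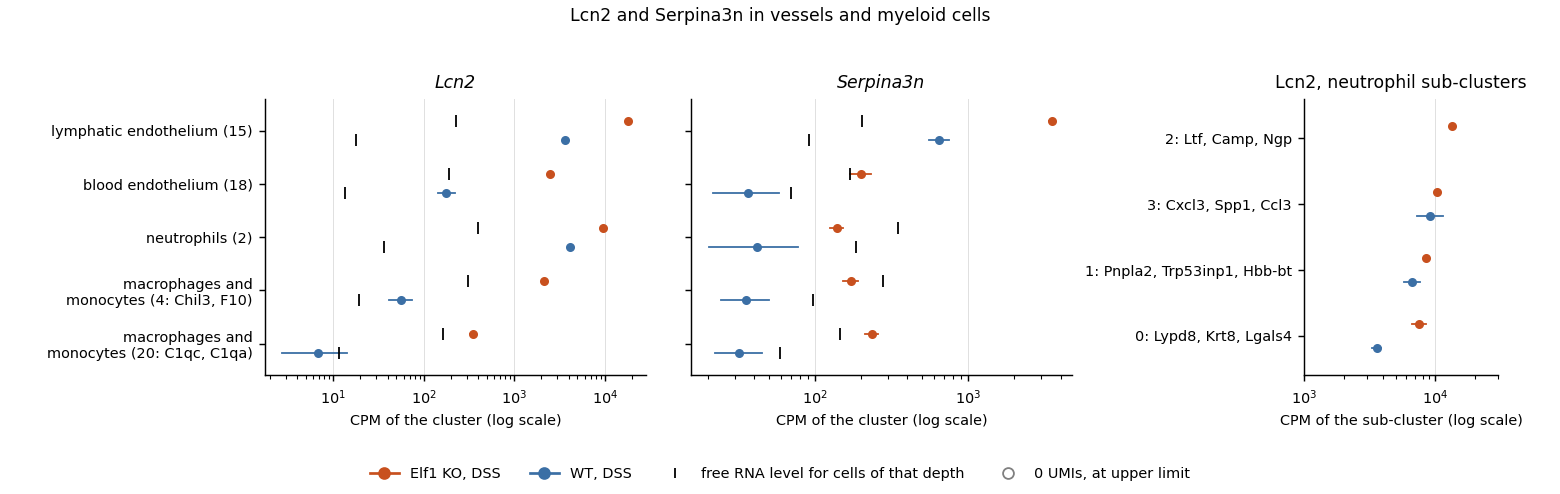
Lcn2 and Serpina3n in endothelial, neutrophil and macrophage clusters, and Lcn2 in neutrophil sub-clusters, in CPM on a log axis with exact Poisson intervals, labelled KO above WT; ticks mark the free RNA level. Lymphatic endothelium had the highest Lcn2 in the library labelled KO (17902 CPM) and was the endothelial cluster with Serpina3n well over the ticks in both libraries.

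Hp, the haemoglobin scavenger, was found mostly in fibroblasts, neutrophils and macrophages with monocytes. Neutrophils had the highest class level in both libraries, 2443 CPM in labelled KO cells and 1828 CPM in WT cells, a ratio of 1.34 (1.21 to 1.48) that did not pass the limit. In macrophages and monocytes it was at 1109 CPM in the library labelled KO and 358 CPM in the WT library (3.10-fold, 2.86 to 3.37), again mostly in cluster 4, at 1666 and 728 CPM, beside the neutrophil marker sums given for that cluster. In fibroblasts it was at 760 CPM in the library labelled KO and 126 CPM in the WT library, 6.02-fold. Equal cluster shares left this at 5.62 (labelled KO shares) or 5.72 (WT shares, leaning on the 8 labelled KO cells of cluster 26). The densest fibroblasts were cluster 10, only 82 labelled KO and 62 WT cells, at 9610 CPM in labelled KO cells and 2120 CPM in WT cells, where 1 WT cell held 30.2%. In these cells 89.0% of labelled KO and 38.7% of WT cells had an Hp UMI, with medians of 29 and 0. Under the stricter UMI minimum named above, a cluster led by the same genes as cluster 10 (Ptn, Thbs2 and Fibin) took no name. With at most 10% mitochondrial UMIs such a cluster kept the fibroblast name. Cluster 9 had 1275 CPM in labelled KO cells and 147 CPM in WT cells, and cluster 16 had 530.5 and 186 CPM. By UMIs, clusters 9, 10 and 16 held 4623, 3546 and 2677 of the 12379 Hp UMIs of labelled KO fibroblasts. WT fibroblasts held 695 Hp UMIs, whose split by cluster is not given here and may differ. Neutrophil markers in cluster 10 summed to 3222 CPM in labelled KO and 323 CPM in WT cells, and their part was not tested.

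Serpina3n, the leukocyte protease inhibitor, was a gene of stromal cells and, by the ratio over all fibroblasts as captured, the most even member. In fibroblasts it was at 4286 CPM in the library labelled KO and 3451 CPM in the WT library, a ratio of 1.24 (1.22 to 1.26), and after thinning 90.4% and 80.2% of cells had a UMI. With labelled KO cluster shares in both libraries the ratio was 1.64, and Saa3, at 1.15, was more even. With WT cluster shares in both, which lean on the 8 labelled KO cells of cluster 26, Serpina3n was at 1.25. The main WT cluster, 26, had 3877 CPM in 8 labelled KO cells and 3881 CPM in WT cells. Differences were larger in smaller clusters: cluster 10 had 5718 CPM in labelled KO and 1135 CPM in WT cells, cluster 13 had 3127 and 1118 CPM, and cluster 9 had 6031 and 2987 CPM. In smooth muscle cells and pericytes (308 labelled KO and 353 WT cells) it was at 3178 CPM in the library labelled KO and 1437 CPM in the WT library (2.21-fold, 2.07 to 2.36). There 4 of 4 measured members were higher past the limit, where 5.74% of 5196 genes were higher and 9.37% lower, but Hp and Lcn2 stood at 1.07 and 1.05 times their free RNA level in labelled KO cells and Saa3 at 1.44 times. Hp (54 labelled KO and 3 WT UMIs) and Lcn2 (264 and 4) entered through labelled KO cells alone, which favoured calling them higher. That class lay mostly in smooth muscle cluster 17 (53.6% of labelled KO and 81.3% of WT cells), with fibroblast markers summing to 19919 CPM in labelled KO and 11802 CPM in WT cells of that cluster. At a clustering resolution of 2.0 the cluster led by Cnn1 and Lmod1 held 27 labelled KO and 277 WT cells. Another of the class, led by Myh11, Acta2, Actg2, Enpp2 and Serpina3c, held 361 and 31. The part of this unlike make-up in the ratio was not tested. In endothelial cells Serpina3n was at 1726 CPM in the library labelled KO and 267 CPM in the WT library (6.47-fold, 5.61 to 7.48). Lymphatic cluster 15 carried it, at 3500 CPM in labelled KO cells and 646 CPM in WT cells, while blood cluster 18 was at 199.9 CPM in labelled KO cells and 36.9 CPM in WT cells, the WT level being 0.53 times the free RNA level. Enteric glia, with 55 labelled KO and 33 WT cells, were at 1800 and 814 CPM and were not compared.

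Ptx3, the long pentraxin, belonged to 1 fibroblast cluster. Cluster 9, with 452 labelled KO and 128 WT cells, held 85.8% of all Ptx3 UMIs in the library labelled KO and 88.9% in the WT library. Its level was 1655 CPM in labelled KO cells and 713 CPM in WT cells, with a UMI in 77.7% and 53.1% of cells and medians of 5 and 1 UMIs. In the other fibroblast clusters with at least 20 cells in both libraries it was at most 52.9 CPM in labelled KO cells and 11.8 CPM in WT cells. Over all fibroblasts Ptx3 was at 402 CPM in the library labelled KO and 98.5 CPM in the WT library, 4.08-fold (3.74 to 4.46), with 2.83 and 3.73 under labelled KO and WT cluster shares. The WT shares weigh cluster 26 most, with its 8 labelled KO cells. Endothelial cells had 28 UMIs in each library, 19.0 CPM in labelled KO and 35.8 CPM in WT cells, a ratio of 0.53 (0.30 to 0.93) that did not pass the limit. This value depended on the setting: the log2 ratio was -0.91 as captured, -2.30 with free RNA subtracted (0.20-fold, past 2-fold), -0.02 with called doublets kept and 0.025 as a mean over cells. In WT lymphatic cells 1 cell held 37.0% of the UMIs. Labelled KO glia had 148 Ptx3 UMIs in 55 cells, 1 cell holding 37.8%, and WT glia 0 in 33 cells.

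**Figure D5:**
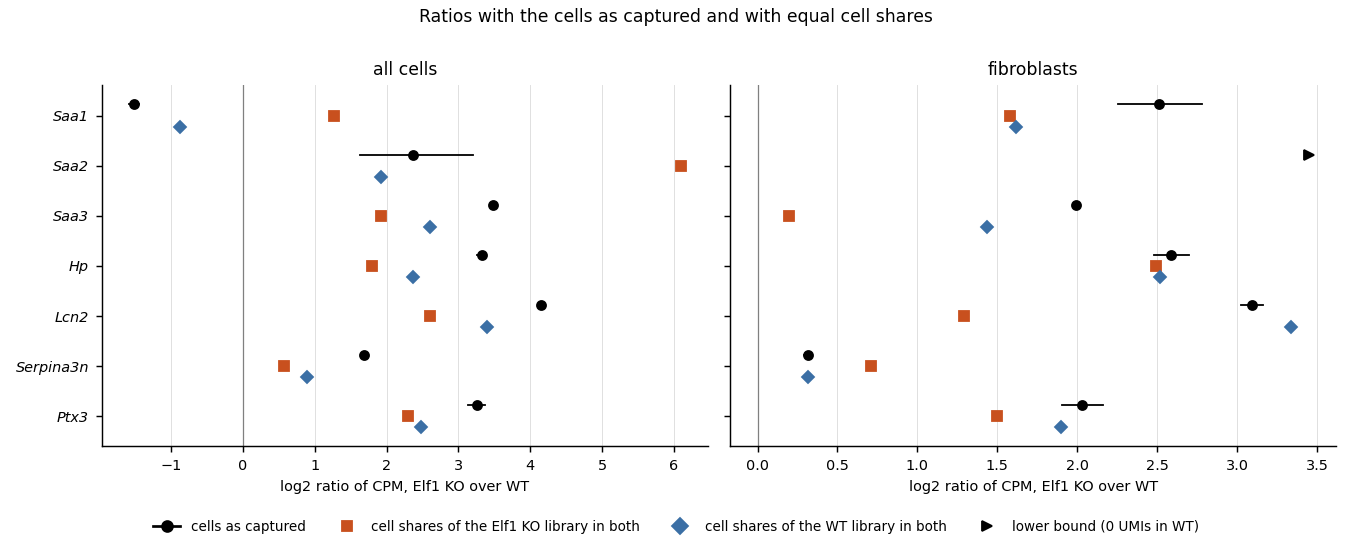
Log2 ratio of labelled KO over WT for each gene over all cells and over fibroblasts, with the cells as captured (circles, with counting intervals) and with the cell shares of the labelled KO library (squares) or the WT library (diamonds) given to both. Saa1 over all cells stood at -1.52 as captured and at 1.26 with labelled KO class shares, and Saa3 in fibroblasts stood at 1.99 as captured and 0.20 with labelled KO cluster shares. The Saa2 point at 6.09 rests on 17 WT UMIs. In fibroblasts the diamonds weigh cluster 26 most, with its 8 labelled KO cells. Over all cells they give 13.6% to epithelial cells, of which the library labelled KO has 70.

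Members met in the same fibroblasts to different degrees. In cells thinned to 1000 UMIs, Saa3 was found in 88.7% of 1392 labelled KO fibroblasts with Lcn2 and in 82.8% of 1160 without it. In the WT library it was found in 69.2% of 65 fibroblasts with Lcn2 and in 23.5% of 1093 without it. Serpina3n was found in 88.9% of labelled KO fibroblasts with Lcn2 and 92.2% of those without, against 50.8% and 82.0% in the WT library. In labelled KO macrophages Hp was in 70.7% of 413 cells with Lcn2 and 40.6% of 441 without. Cells of 1 library share its free RNA, and clusters that differ in these genes were pooled here. A contrast can therefore lie between clusters as well as within them. These shares are a description without a test.

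Across 11 classes of both libraries (22 points that share libraries and depth), the genes whose log2(CPM + 10) followed a member most closely among 12218 genes were few enough to name, 4 each. Hp was nearest to Arg2, Cxcl2, C5ar1 and Hcar2 (Pearson r 0.97 to 0.90), and Lcn2 to Sema6b, Csf3, Lrg1 and Steap4 (0.84 to 0.81). Saa3 was nearest to Cemip, Cxcl13, Ptges and Ccl2 (0.91 to 0.87), Serpina3n to Igfbp5, Gm13889, Serping1 and Adamts4 (0.98 to 0.97), and Ptx3 to Mmp10, Ccl11, Il33 and Pappa (0.95 to 0.93). Saa1 was nearest to Liph, Plekha6, Slc44a3 and Cldn12 (0.89 to 0.88). For Saa2, on 127 UMIs, Ntrk2, Dpep1, Sult5a1 and Erfe led (0.86 to 0.83). These values are descriptions and carry no p.

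For the gene lists below, the free RNA level is again the higher of the erythroid and plasma cell means. Those cells may make some listed genes themselves, which was not tested, so it can lie above the free RNA. Of 40 other acute phase genes on the list, 20 were measured in fibroblasts. Of these, 10 were higher past the limit in the library labelled KO, all 10 over their free RNA level, and 0 lower, where 3.35% of all genes were higher and 13.4% lower, and the median log2 ratio was 1.10. The metallothioneins Mt1 and Mt2, which bind zinc and copper, led in UMIs, with Mt1 at 38772 CPM in labelled KO and 6842 CPM in WT fibroblasts (5.67-fold) and Mt2 at 12583 and 2786 CPM (4.52-fold). Fgg, the fibrinogen gamma chain, had 135 UMIs in labelled KO fibroblasts and 0 in WT fibroblasts, and Saa4 had 163 and 12. The complement gene C4b was at 911 CPM in labelled KO and 1626 CPM in WT fibroblasts (0.56) and did not pass the limit. In macrophages 9 of 16 were higher, 5 of them over free RNA, and 0 lower (4.52% and 6.63% of all genes), with Lrg1 at 774 and 89.2 CPM (8.67-fold) and the endotoxin receptor Cd14 at 7602 and 3498 CPM (2.17-fold). In endothelial cells 9 of 13 were higher, 8 of them over free RNA, and 0 lower (3.75% and 6.65% of all genes). In smooth muscle cells 9 of 11 were higher, 7 of them over free RNA, and 0 lower (5.74% and 9.37%). In T cells 9 of 12 were higher, 1 of them over free RNA, and 0 lower (5.28% and 3.56%). In neutrophils 5 of 11 were higher, 1 of them over free RNA, and 2 lower (5.45% and 8.80%), the lower ones being Steap4 at 42.8 and 106 CPM and the IL-1 antagonist Il1rn at 449 and 935 CPM.

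Of the cytokines and receptors that induce these genes, 1 of 20 measured in fibroblasts was higher past the limit and 2 were lower, where 3.35% and 13.4% of all genes were, with a median log2 ratio of 0.05. Il11, an IL-6 family cytokine, was at 2168 CPM in labelled KO and 1009 CPM in WT fibroblasts (2.15-fold). The lower ones were the receptors Lifr, at 41.8 and 119 CPM, and Il11ra1, at 80.5 and 184 CPM. Il6 was at 334 and 196 CPM (1.71-fold) and did not pass the limit. In neutrophils 2 of 12 were higher and 3 lower (5.45% and 8.80% of all genes), with Il1b at 3742 CPM in labelled KO and 9455 CPM in WT cells (0.40) and Tnf at 656 and 284 CPM (2.31-fold). In endothelial cells 3 of 14 were higher and 2 lower (3.75% and 6.65%), and in T cells 5 of 19 and 2 (5.28% and 3.56%). In macrophages 3 of 18 were higher and 0 lower (4.52% and 6.63%), and Il1b was at 3754 and 5420 CPM (0.69).

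Signalling and transcription factors of the acute phase response gave 1 higher and 4 lower of 20 measured in fibroblasts, where 3.35% and 13.4% of all genes were. Among the lower ones, Irf1 was at 27.8 CPM in labelled KO and 82.0 CPM in WT fibroblasts (0.34). In both libraries this was below the level taken from erythroid and plasma cells, which may make Irf1 themselves. Cebpb, at 1621 and 1520 CPM (1.07), and Cebpd, at 1940 and 2108 CPM (0.92), did not pass the limit. Zc3h12a, an RNase that limits inflammatory transcripts, was the higher one, at 88.2 and 34.9 CPM (2.53-fold). In smooth muscle cells 7 of 17 were higher and 2 lower (5.74% and 9.37% of all genes), among them Nfkb2 at 80.8 and 19.3 CPM (4.19-fold) and Cebpd at 2752 and 1289 CPM (2.13-fold). In macrophages 0 of 20 were higher and 4 lower (4.52% and 6.63%), with Atf3 at 1049 and 2386 CPM (0.44).

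Of the members' receptors, ligands and targets, 4 of 20 were higher and 2 lower (Prtn3 and Mmp9) in fibroblasts, where 3.35% and 13.4% of all genes were, and 1 of those 4 was over its free RNA level. In macrophages 8 of 19 were higher, 7 of them over free RNA, and 0 lower (4.52% and 6.63% of all genes). Cd163, the receptor for haptoglobin bound to haemoglobin, was at 222 CPM in labelled KO and 41.7 CPM in WT macrophages (5.32-fold, 4.22 to 6.79). Hmox1, which degrades the haem, was at 1656 and 342 CPM in macrophages (4.84-fold) and 589 and 72.5 CPM in fibroblasts (8.13-fold). Fpr1, a formyl peptide receptor, was at 331 and 41.7 CPM in macrophages (7.93-fold). Lrp1, an endocytic receptor for many protease and inhibitor complexes, was at 1496 and 1321 CPM in fibroblasts (1.13) and did not pass the limit.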

How the data were processed

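Single-cell RNA-seq libraries of 2 pools of 3 mice were analysed from UMI counts per gene and cell, deposited by the authors as matrices, 1 per group. Per the submitters' processing notes, cutadapt 1.17, STAR 2.6.1a, featureCounts 2.0.1 and the build GRCm38 were used; the sources used here do not state cell calling or strand settings. The matrices list only barcodes of at least 500 UMIs.

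Cells with under 200 genes (239 in the library labelled KO and 117 in the WT library) or over 25% mitochondrial UMIs (83 and 438) were left out. Doublets were called with scrublet in scanpy 1.11.5 at an expected rate of 0.06, which removed 260 labelled KO cells. The caller marked 2 of 8124 WT cells and so had not worked there, and the 406 WT cells with the highest scores (5%) were removed. The 2000 most variable genes, without the 7 members and without mitochondrial, ribosomal, haemoglobin, immunoglobulin and sex-linked genes, gave 30 principal components, 15 neighbours and Leiden clusters at resolution 1.0 (igraph 0.11.9). Clusters were named from fixed marker lists by a rule set after the clusters were seen: at least 3 markers and at least 50% of the list had to be at least 2-fold over the median of the clusters and found in at least 10% of the cluster, with the same class leading by mean fold. Counts were summed per class and library and given as CPM. Poisson, conditional binomial and Clopper-Pearson intervals are exact and at 95%. There was 1 library per group, so no test was made. Free RNA was taken from erythroid and plasma cells, and cells were thinned to 1000 UMIs where shares of cells are given (1263 labelled KO and 1128 WT cells were shallower). Only the code for the ratio intervals was run on simulated counts, drawn from the fibroblast sums, and the other steps were not.

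The members and gene lists were chosen with earlier results of these data known. All 7 members are named. For each member the 4 genes of highest Pearson r are named. Of each list, the 3 highest and 3 lowest ratios and the 2 genes with the most UMIs could be named, among genes with at least 50 UMIs in the class over both libraries together. The alternatives were another scaling (TMM in edgeR 4.0.16, R 4.3.3), stricter and looser cell filters, called doublets kept, thinning, equal class or cluster shares, free RNA subtracted, means over cells, another clustering resolution and members allowed among variable genes. Python 3.11.15, numpy 2.4.6, scipy 1.17.1, pandas 2.3.3, anndata 0.12.19, scikit-learn 1.9.0 and matplotlib 3.10.9 were used. Promoter sequences are from RefSeq, and gene positions from the GENCODE annotation of GRCm38. The values of 1 listed gene are not reported here.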

Additional observations from a re-analysis of the deposited data

Results flagged for a closer look

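As captured, Ptx3 had opposite directions in the stroma and in vessels. Its log2 ratio of labelled KO over WT was 2.03 in fibroblasts, on 6550 labelled KO and 542 WT UMIs, and -0.91 in endothelial cells, on 28 UMIs in each library. The endothelial value did not pass the limit and depended on the setting, at -2.30 with free RNA subtracted, -0.02 with called doublets kept and 0.025 as a mean over cells. In WT lymphatic cells 1 cell held 37.0% of the UMIs. The difference between fibroblasts and endothelial cells was not tested, since each group is 1 library. Its cause was not tested.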

How the results depend on the processing

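With 1 library per group, the spread between mice is unknown and leaving out a library was not possible. No paired analysis was possible because both groups share a single replicate number and hold 1 library each. Of 501 values under other settings for 58 results, 385 moved by less than their counting interval, 113 moved by more and 3 changed direction. Apart from these 501, 41 had no value, among them the CPM of Saa1 in WT fibroblasts with free RNA subtracted, which is not a ratio. Values below are log2 ratios, labelled KO over WT, and unless said otherwise the cause of a shift was not tested.

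As captured, all cells gave -1.52 for Saa1, 3.47 for Saa3, 3.32 for Hp, 4.15 for Lcn2, 1.68 for Serpina3n and 3.25 for Ptx3, and fibroblasts 2.51, 1.99, 2.59, 3.09, 0.31 and 2.03. The 3 reversals were Saa1 over all cells with labelled KO class shares (1.26), Serpina3n in plasma cells with called doublets kept (-1.0, against 1.73) and Ptx3 in endothelial cells as a mean over cells (0.025, against -0.91). With labelled KO class shares Saa3 was 1.92, Hp 1.79, Lcn2 2.6, Serpina3n 0.57 and Ptx3 2.30; with WT class shares Saa1 was -0.88, Saa3 2.6, Hp 2.37, Lcn2 3.40, Serpina3n 0.89 and Ptx3 2.48. In fibroblasts, labelled KO cluster shares gave Saa1 1.58, Saa3 0.20, Lcn2 1.29, Serpina3n 0.71 and Ptx3 1.5, and WT cluster shares Saa1 1.62, Saa3 1.44, Lcn2 3.33 and Ptx3 1.90. These share settings were chosen after seeing the data, apart from WT class shares. WT cluster shares give 68.3% of the fibroblasts to cluster 26, with 8 labelled KO cells. WT class shares give 13.6% of the cells to epithelium, with 70 labelled KO cells, 57 of them enteroendocrine.

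TMM scaling raised all genes alike, by 0.24 over all cells and 0.38 in fibroblasts. All cells then gave Saa1 -1.28, Saa3 3.72, Hp 3.56, Lcn2 4.40, Serpina3n 1.93 and Ptx3 3.49, and fibroblasts Saa1 2.89, Saa3 2.37, Hp 2.97, Lcn2 3.47, Serpina3n 0.69 and Ptx3 2.41. Lcn2 was 2.88 in endothelial cells and 1.59 in neutrophils, Hp 0.80 in neutrophils and 1.80 in macrophages, Saa3 4.96 in macrophages and Serpina3n 1.30 in smooth muscle. Thinning gave Saa1 -1.03, Saa3 3.55, Hp 3.04, Lcn2 3.99 and Serpina3n 1.44 over all cells, Saa1 2.94, Saa3 2.36, Hp 2.77, Lcn2 3.93 and Ptx3 2.27 in fibroblasts, Lcn2 2.46 in endothelial cells and Saa3 4.32 in macrophages. Means over cells gave Saa1 -1.40, Saa3 3.63, Hp 3.02, Lcn2 3.95, Serpina3n 1.45 and Ptx3 2.97 over all cells, Saa3 2.36, Hp 2.76, Lcn2 3.71 and Serpina3n 0.26 in fibroblasts, Lcn2 2.57 in endothelial cells and 1.32 in neutrophils, and Saa3 4.42 in macrophages. Free RNA subtracted gave Saa1 -1.33, Saa3 3.45, Hp 3.48 and Serpina3n 1.71 over all cells, and Saa3 1.95 in fibroblasts and 5.01 in macrophages.

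At most 10% mitochondrial UMIs gave Saa1 -1.42, Saa3 3.44 and Serpina3n 1.65 over all cells. Called doublets kept, and every deposited barcode, each gave Saa3 3.42 and Serpina3n 1.66 over all cells; the first gave Saa3 1.94 in fibroblasts. A minimum of 1000 UMIs gave Saa3 1.97, Hp 3.35 and Serpina3n 0.27 in fibroblasts. That minimum also changed the class: a cluster led by Ptn, Thbs2 and Fibin, as cluster 10 is, took no name. Its 75 labelled KO and 54 WT cells were then not among the fibroblasts, and their part in the shift was not tested. Members allowed among variable genes gave Serpina3n 0.98 in smooth muscle. Among the genes most like each member, Cldn12, Sult5a1, Ccl2, Adamts4, Il33 and Pappa left the leading genes with a pseudocount of 1 in place of 10, and Sult5a1, Cemip, Cxcl13, Ptges, C5ar1, Hcar2, Csf3, Steap4, Igfbp5, Gm13889, Adamts4 and Pappa with each library centred on its mean.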
